A study of Mus musculus with 7 samples.

Results

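Loss of Ptprd, whether of 1 allele or of both, was compared with wild type in mouse glioma cells, with attention to the genes for which every deficient array lay on the same side of both wild-type arrays. Of 9243 genes tested, 1422 were separated in this way, or 15.4%: in 657 (7.11%) all 5 deficient arrays were above both wild-type arrays, and in 765 (8.28%) all 5 were below. Separation is how the genes were chosen and carries no test of its own. Gliomas had been started in newborn mice, 1 to 3 days after birth, by injecting the brain with an RCAS vector, a bird retrovirus that brings in PDGFB and GFP and enters only cells with the receptor tv-A, here made from a Nestin-tvA transgene. Every mouse lacked p16 (p16-/-) and had a mixed C57/BL6 and FVB/N background. The groups were Ptprd+/+ (2 arrays, called wild type), Ptprd+/- (2 arrays, heterozygous) and Ptprd-/- (3 arrays, null). Tumour cells positive for GFP and negative for the dead-cell dye DAPI were sorted when a mouse fell ill or at 12 weeks after injection. The sources used here do not say whether an array held 1 tumour or several. P-values therefore measure the spread between these arrays, which may be smaller than that between mice.

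PTPRD is a receptor-type protein tyrosine phosphatase of the LAR family, along with PTPRF and PTPRS. Its outer part binds partners on neighbouring cells, such as the SLITRK and IL1RAPL proteins, and helps to build synapses, while its inner part removes phosphate groups from tyrosines. STAT3, a transcription factor switched on by tyrosine phosphorylation, is among its described substrates, and PTPRD is often deleted or silenced in human glioma. Gliomas driven by PDGFB resemble oligodendrocyte progenitors, the dividing glial cells that respond to PDGF through its receptor PDGFRA.

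All values are log2 expression levels from 3'-primed labelling, with 1 probe set for each gene, and all differences are on the log2 scale, where 1 is a 2-fold change. The difference for any loss is the mean of the heterozygous and null means minus the wild-type mean. It was tested with limma, and calls were made at an adjusted p under 0.05. The arrays carried the oligodendrocyte progenitor genes Olig1, Olig2, Sox10, Pdgfra, Cspg4 and Ptprz1 at high levels, the lowest value being 10.39. The heterozygous arrays stood apart: across probe sets they correlated with the other arrays at 0.976 to 0.987, against 0.990 to 0.995 among wild-type and null arrays. The any-loss difference gives the heterozygous arrays a weight of 1 in 2. The null difference, which contains no heterozygous array, is therefore given beside it for most of the lists and many of the genes described. The null and heterozygous differences subtract the same wild-type arrays. Heterozygous against wild type on its own called 938 genes (10.1%). Null against wild type on its own gave 0 calls (0%), with a smallest adjusted p of 0.883. At an unadjusted p under 0.05 there were 475 genes, against 462 expected by chance. Heterozygous replicate 1 and null replicate 1 carried both Xist and Y-linked transcripts, the others 1 kind only. Without these 2 arrays, 1089 genes instead of 657 had all deficient arrays above, and 0 genes were called (1316 at an unadjusted limma p under 0.05).

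Ptprd itself had the widest gap below wild type of all named genes. Its level was 10.86 and 10.89 in wild type, 9.42 and 9.57 in heterozygous, and 9.61, 8.95 and 9.93 in null cells. All 5 deficient arrays thus lay at least 0.93 below the lower wild-type array, and the heterozygous values fell within the range of the null ones. The any-loss difference was -1.37 ± 0.24 (SE). In limma the adjusted p was 0.0674, and it passed the threshold without null replicate 2 (0.0424). The difference was -1.37 for heterozygous and -1.37 for null cells, so they differed from each other by 0.00. The other probe sets of Ptprd gave any-loss differences of -1.37 and -1.34. Whether any of them lies in the part of the gene removed by targeting is not known here, so they do not check the null label.

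**Figure D1:**
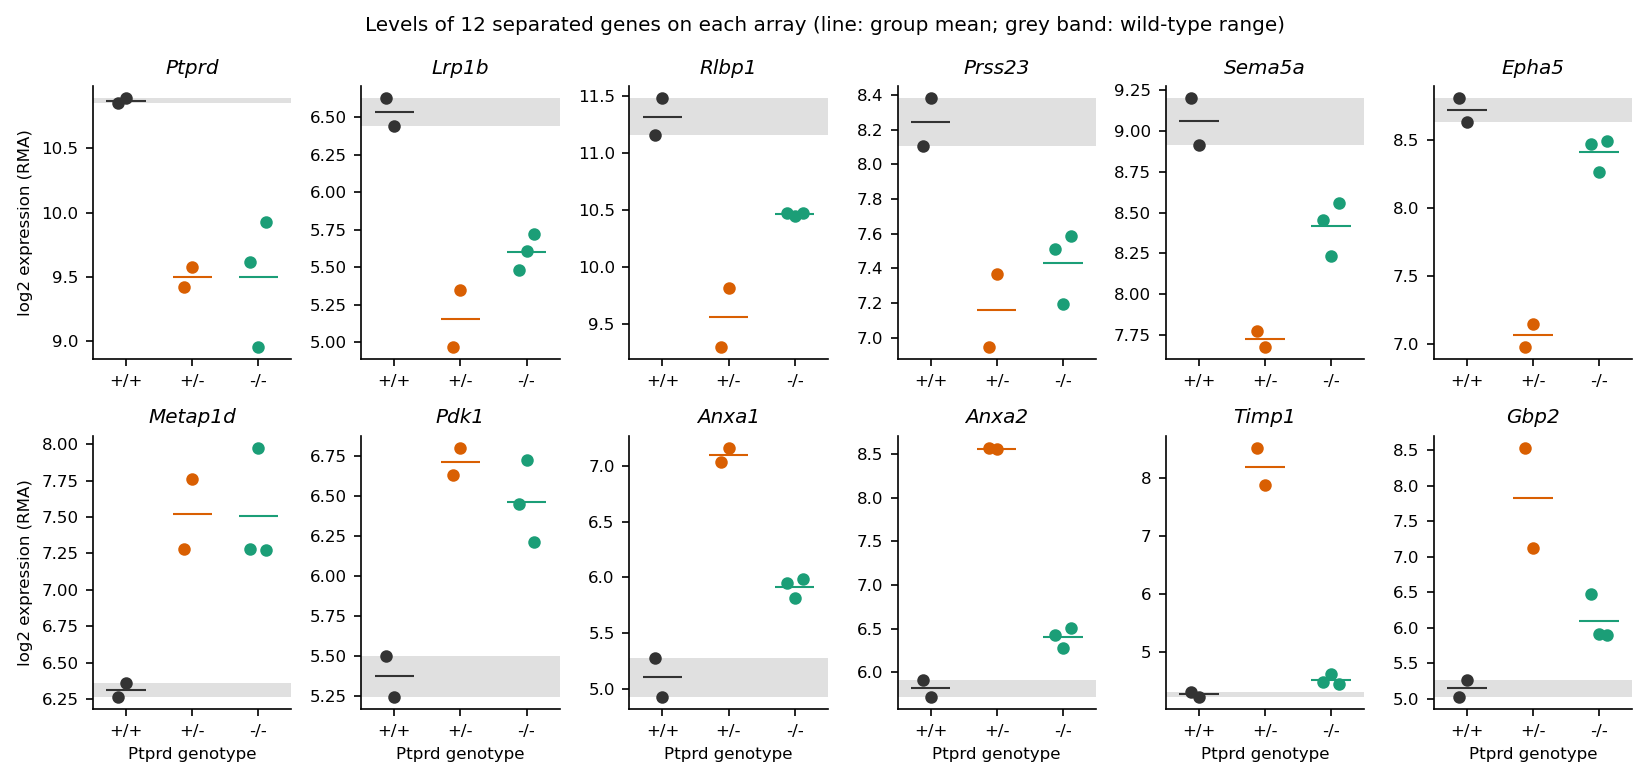
Each panel plots the log2 level (RMA) of 1 gene on the 7 arrays by Ptprd genotype, with a line at each group's mean and a grey band over the wild-type range; vertical scales differ between panels. No deficient array enters the wild-type band in any panel, heterozygous and null arrays share a level for Ptprd and Metap1d, and for Timp1 the null arrays lie just above the band at 4.44 to 4.60 while the heterozygous arrays are at 7.88 and 8.51.

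In a few genes, as in Ptprd, both deficient genotypes lay far from wild type, in some of them by similar amounts. Metap1d, a mitochondrial methionine aminopeptidase, had the widest gap above wild type. It read 6.27 and 6.36 in wild type, 7.28 and 7.76 in heterozygous, and 7.28, 7.97 and 7.27 in null cells. These groups are 0.91 apart at their nearest, and the differences were 1.20 for heterozygous and 1.19 for null cells (any loss 1.20 ± 0.23, adjusted p = 0.081). A further probe set of Metap1d, with a mean level of 3.91, was too dim to bear on this. Pdk1, the kinase that holds back pyruvate dehydrogenase and is induced by low oxygen, was at 5.50 and 5.24 in wild type, 6.63 and 6.80 in heterozygous, and 6.45, 6.72 and 6.21 in null cells. Pdk1 rose by 1.22 ± 0.16 (adjusted p = 0.0357), with 1.34 in heterozygous and 1.09 in null cells. It was called for any loss and was not called between null and heterozygous (difference -0.25, 95% interval -0.65 to 0.14).

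Lrp1b, a very large receptor of the LDL receptor family, was the other called gene that was not called between null and heterozygous, and it lay below wild type. It was at 6.62 and 6.44 in wild type, 4.97 and 5.34 in heterozygous, and 5.48, 5.61 and 5.72 in null cells. Lrp1b fell by 1.15 (SE 0.13, adjusted p = 0.0332), by 1.38 in heterozygous and 0.93 in null cells. Null minus heterozygous was 0.45 (95% interval 0.10 to 0.79), which did not pass the adjusted threshold. Prss23, a secreted serine protease, was at 8.10 and 8.38 in wild type, 6.95 and 7.37 in heterozygous, and 7.51, 7.19 and 7.59 in null cells, a difference of -0.95 ± 0.17 that missed the threshold (adjusted p = 0.07), with -0.81 in null cells. Periostin (Postn), a matrix protein, was above wild type by 1.10 in heterozygous cells and 1.03 in null cells (adjusted p = 0.148), and caspase 1 (Casp1), which matures IL-1 beta, by 1.15 and 1.08 (adjusted p = 0.164). Col3a1, a fibrillar collagen, was above by 2.13 and 1.15, amounts less alike, and was not called. The extracellular glycoprotein gene Olfml3 and the phosphatase gene Ptpn13 had gaps of 0.48 and 0.42, with any-loss differences of 0.84 and 0.93 (0.76 and 0.78 in null cells) and adjusted p of 0.0666 and 0.12. Sh3rf1, a ubiquitin ligase that scaffolds JNK signalling, was below wild type by 0.50 and 0.48 in the fits of heterozygous and null cells, yet its other probe sets ranged from -0.27 to 0.02.

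Only 5 genes among the 657 and 1 among the 765, Ptprd, differed from wild type by more than 2-fold in each deficient genotype. The usual separation was narrow. The median gap between the nearest deficient and the nearest wild-type array was 0.08 above and 0.07 below, and 417 and 492 genes had a gap under 0.1. At the edge of the rule, Mrpl17 and Ino80b were just above wild type on all 5 deficient arrays and Adam23 and Abcb9 just missed it, with differences of 0.33, 0.19, 0.16 and 0.10. On the lower side, Hnrnpdl and Ptpre were just inside (-0.11 and -0.30) and Adam10 and Ankrd27 just outside (-0.15 and -0.33). Adam23, Abcb9 and Adam10 missed through a value that was the same on a wild-type and a deficient array. Where a separated gene had several probe sets, another of them went the other way in 93 of 275 genes above and in 140 of 470 below. Of the genes above, 57 passed the filter on dim genes on no wild-type array, so for them the filter admitted only a difference.

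Of the 9243 genes, 30 (0.325%) passed the threshold for any loss, 18 higher (0.195%) and 12 lower (0.13%), and 23 of the 30 were separated. The test and the separation use the same difference, so the overlap of both supports neither. All 30 were also called in heterozygous against wild type, and 0 genes were called in null against wild type. The calls were fragile: leaving out 1 array gave 0 to 2 calls for each array other than null replicate 2, without which 22 genes were called, 11 of them among the 30.

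Besides Pdk1, 11 separated genes rose. Timp1, a secreted inhibitor of matrix metalloproteinases, read 4.31 and 4.22 in wild type, 8.51 and 7.88 in heterozygous, and 4.47, 4.60 and 4.44 in null cells. Its any-loss difference of 2.09 ± 0.17 (adjusted p = 0.0214) therefore combined 3.93 in heterozygous with 0.24 in null cells. Timp1 passed the filter on dim genes on the heterozygous arrays only, so it had to differ there, and its wild-type and null values, below the filter, are near background. Annexin A2 (Anxa2), which binds membranes and plasminogen, was at 5.91 and 5.72, then 8.56 and 8.56, then 6.43, 6.28 and 6.51 in wild-type, heterozygous and null cells. It rose by 1.67 ± 0.10 (adjusted p = 0.00753), by 2.74 in heterozygous and 0.59 in null cells. Annexin A1 (Anxa1), a phospholipid-binding protein that limits inflammation, was at 5.27 and 4.93, then 7.04 and 7.16, then 5.95, 5.81 and 5.99. It rose by 1.40 ± 0.12 (adjusted p = 0.0224), by 0.81 in null cells. The lysosomal protease gene Ctsh was at 4.90 and 4.87, then 7.10 and 6.58, then 5.86, 5.44 and 5.56, and rose by 1.34 ± 0.17 (adjusted p = 0.0357), by 0.73 in null cells. In each of these genes the heterozygous arrays were highest and the null arrays were intermediate, without overlap among the 3 genotypes.

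The remaining 7 that rose did so by 0.89 to 1.14. They were serglycin (Srgn, a granule proteoglycan), Fgl2 (a fibrinogen-like protein of immune cells), Mt1 (a metallothionein, which binds zinc and other metals), Oaf, Ifitm2 (an interferon-induced block to virus entry), Crip1 and the small heat shock protein Hspb8. Fgl2 and Ifitm2, like Timp1, were below the filter on both wild-type arrays, Fgl2 on the null arrays too. Mt1 was the brightest of them, at 10.64 and 10.61 in wild type, 12.08 and 12.50 in heterozygous, and 10.91, 11.02 and 11.10 in null cells. It rose by 1.02 ± 0.13 (adjusted p = 0.0357), by 1.67 in heterozygous and 0.38 in null cells. Mt1 differed by 0.14 for its other probe set. Its neighbour Mt2 was also called (1.42) but was not separated, since the null arrays, at 9.24, 9.24 and 8.93, overlapped wild type at 9.20 and 8.92. Lgals3, Emp3, Tgm1, Gadd45g and Cd109 rose in the same manner with overlapping null arrays, with null differences between -0.12 and 0.56, and Ppargc1a fell with a null difference of -0.14. Tgm1 and Cd109 were above the filter on 2 deficient arrays and no wild-type array.

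The stretches of 250 bases upstream of the annotated start are shown for 3 genes that lay above wild type. Each was picked for a match: the metal response core in Mt1, AP-1 in Anxa2 and the interferon response element in Gbp2 (described further on). The window of Fgl2, which held 1 match to STAT, is not shown. The windows of Timp1, searched for AP-1, and Pdk1, searched for the hypoxia response, held 0 matches to that element and are not shown. Other elements did match there: Timp1 held 1 match each to the hypoxia and metal response, and Pdk1 2 to the metal response. Sequences are from RefSeq (GRCm38.p6), 5′ to 3′ on the gene's strand, here the plus strand, and capitals mark the match. Mt1 is at chr8:94178839-94179088, Anxa2 at chr9:69453433-69453682 and Gbp2 at chr3:142620413-142620662.
Mt1: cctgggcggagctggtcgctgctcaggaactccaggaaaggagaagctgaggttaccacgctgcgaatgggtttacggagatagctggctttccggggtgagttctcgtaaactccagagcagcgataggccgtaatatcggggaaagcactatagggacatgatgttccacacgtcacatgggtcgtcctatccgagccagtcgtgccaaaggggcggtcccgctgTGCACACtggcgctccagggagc
Anxa2: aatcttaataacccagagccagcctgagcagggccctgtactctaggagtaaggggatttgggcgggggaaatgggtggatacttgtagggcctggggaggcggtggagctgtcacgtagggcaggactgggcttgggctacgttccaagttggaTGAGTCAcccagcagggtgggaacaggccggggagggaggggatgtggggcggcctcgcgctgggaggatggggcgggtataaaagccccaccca
Gbp2: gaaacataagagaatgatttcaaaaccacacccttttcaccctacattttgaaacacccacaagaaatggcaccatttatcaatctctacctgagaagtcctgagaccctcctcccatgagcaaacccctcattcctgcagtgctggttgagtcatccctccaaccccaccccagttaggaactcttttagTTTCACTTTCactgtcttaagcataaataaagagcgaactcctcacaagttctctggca
The searches covered both strands, for TGCNCNC (metal response), TGANTCA (AP-1), GAAA with 2 bases of any kind before a second GAAA (interferon response), TTCNNNGAA (STAT) and ACGTG (hypoxia response), in the 7495 tested genes with a window. The metal response letters are short: they were in 49% of windows of genes above wild type, 55.2% of those below and 53.1% of all, and in 5 of 11 windows of separated genes that rose and 7 of 8 of those that fell. AP-1 letters were in 5.51% of windows of genes above wild type, 3.11% of those below and 4% of all, and interferon response letters in 3.8%, 1.96% and 2.67%. STAT letters were in 6.84%, 5.07% and 5.59%, and those of the hypoxia response in 20.2%, 20.5% and 21.6%. Among the 11 windows of separated genes that rose, 2 held the AP-1 letters and 1 each those of STAT and the interferon response. The shares are descriptions, and a match is not a binding site.

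Besides Lrp1b, 10 separated genes fell. Rlbp1, a retinaldehyde-binding protein used as a marker of oligodendrocyte progenitors, was at 11.16 and 11.48 in wild type, 9.30 and 9.82 in heterozygous, and 10.47, 10.44 and 10.47 in null cells. It fell by 1.31 (SE 0.16, adjusted p = 0.0337), by 1.76 in heterozygous and 0.86 in null cells, and the 3 groups did not overlap. Nrg3, a ligand of the ERBB4 receptor, was at 5.68 and 6.27, then 4.11 and 4.02, then 5.31, 5.40 and 5.57 in wild-type, heterozygous and null cells. Nrg3 fell by 1.23 (SE 0.17, adjusted p = 0.0441), and on the heterozygous arrays it was below the filter on dim genes. Another of its probe sets differed by -0.01 but was dim, with a mean level of 3.01. Sema5a, a transmembrane semaphorin that steers axons, was at 9.20 and 8.92, then 7.78 and 7.68, then 8.46, 8.23 and 8.56. Its fall was 0.99 (SE 0.13, adjusted p = 0.0357). The ephrin receptor gene Epha5 was at 8.81 and 8.63, then 6.98 and 7.15, then 8.47, 8.26 and 8.49, and fell by 0.98 (SE 0.11, adjusted p = 0.0332). In null cells the differences were -0.55 for Nrg3, -0.64 for Sema5a and -0.31 for Epha5.

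The others were Sez6l, Grik1, Lifr, Tob2, Svil and Chst15. Grik1, a kainate-type glutamate receptor subunit, fell by 0.78 (adjusted p = 0.0332; 0.36 in null cells), from 8.87 and 8.94 in wild type to 7.72 and 7.67 in heterozygous and 8.55, 8.45 and 8.64 in null cells. Lifr, the LIF receptor that signals through STAT3, fell by 0.90 (adjusted p = 0.0357), from 11.01 and 11.12 to 9.42 and 9.78 in heterozygous cells. All 3 null arrays gave the same Lifr value, 10.73, and its other probe sets differed by -0.77 to 0.09. Identical values on 2 or 3 null arrays occurred in 7.64% of genes tested and 13.6% of separated genes, and also in Rlbp1 and Tob2. Ties across genotypes were not counted. They occurred too, as in Adam23, at 6.04 on wild type replicate 2, heterozygous replicate 1 and null replicates 2 and 3. Equal values lower the spread of a group, and their part in the calls was not tested.

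**Figure D2:**
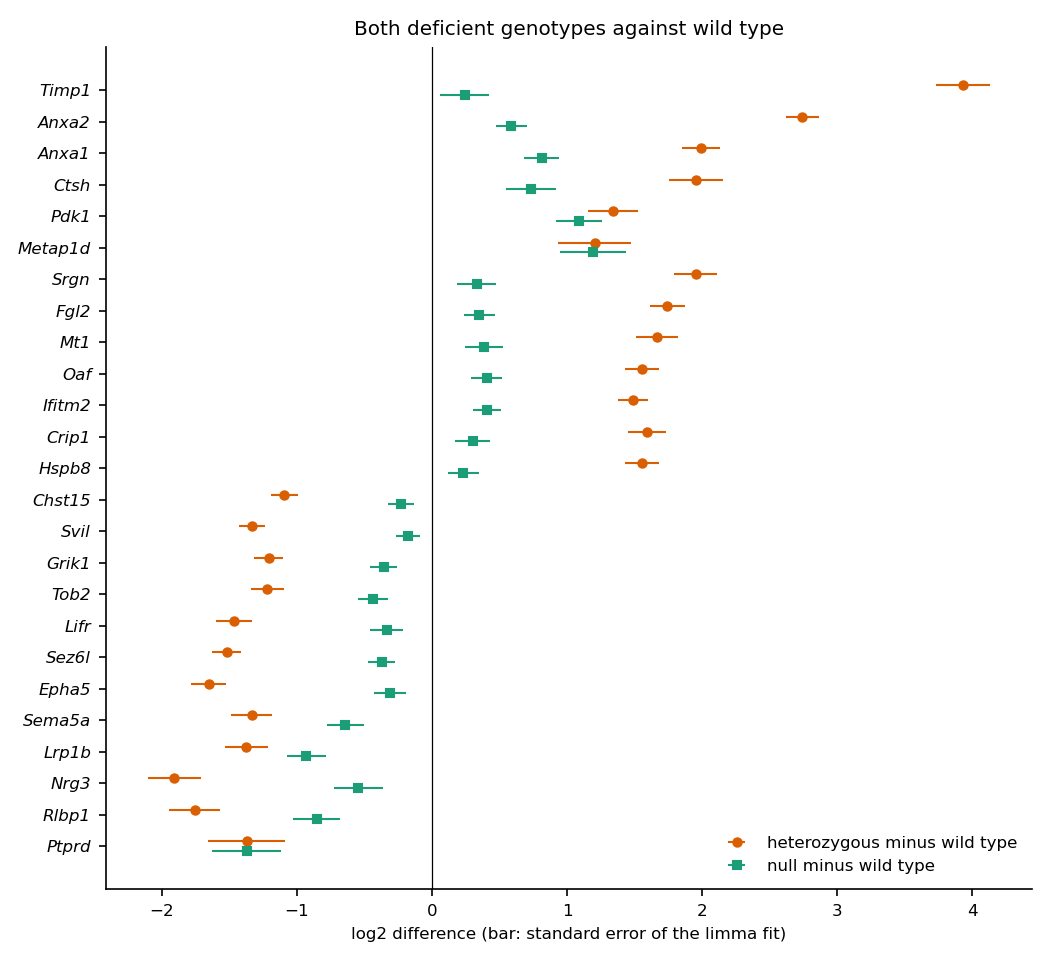
Log2 differences from wild type, heterozygous (circles) and null (squares), are plotted with the standard error of the limma fit for the 23 separated genes past the threshold and for Ptprd and Metap1d. The null squares lie nearer 0 than the heterozygous circles for all 23 genes, while the pair of symbols coincides for Ptprd (-1.37 each) and Metap1d (1.20 and 1.19).

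Heterozygous cells departed further from wild type than null cells in most separated genes. The heterozygous difference was the larger in 467 of 657 genes above and 618 of 765 below, and the medians were 0.34 against 0.24 above and -0.38 against -0.22 below. Null against heterozygous, a contrast whose difference uses no wild-type array, called 68 of the 657 (10.4%) and 89 of the 765 (11.6%), against 8.96% of all genes tested (828). In all 157 the null cells were nearer wild type and in 0 farther away. These shares are near the background, and 21 of the 23 called and separated genes were among the 157, the exceptions being Pdk1 and Lrp1b. An order of wild type, heterozygous and null without overlap was seen in 23 genes above and 14 below, and the order wild type, null and heterozygous in 242 and 361. Lmo4, a LIM-domain cofactor, was the leading case of the former, at 9.60 and 9.61, then 9.76 and 9.72, then 9.83, 10.35 and 10.18, a difference of 0.13 in heterozygous and 0.51 in null cells (any loss, adjusted p = 0.281). On the lower side Slc25a13, a mitochondrial aspartate-glutamate carrier, was at 6.89 and 7.04, then 6.82 and 6.79, then 6.45, 6.50 and 6.6 (adjusted p = 0.166).

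Gene groups were read by how many measured members were separated, beside 7.11% above and 8.28% below over all genes, and by their median difference, beside -0.02 over all genes. Members past the threshold are to be read beside 0.195% of all genes called higher and 0.13% called lower. Interferon response genes had 6 of 24 members above and 0 below, with a median of 0.95 (heterozygous 1.42, null 0.53). Ifitm2, below the filter in wild type and above it on all 5 deficient arrays, was the 1 member that rose past the threshold, from 4.61 and 4.76 to 6.13 and 6.22 in heterozygous and 5.10, 5.01 and 5.17 in null cells. Gbp2, an interferon-induced GTPase whose upstream sequence is given above, was at 5.03 and 5.27 in wild type, 8.53 and 7.12 in heterozygous, and 6.48, 5.91 and 5.90 in null cells. Its difference of 1.81 ± 0.36 had an adjusted p of 0.0827, and its other probe set differed by 2.03. Ifitm3 was at 7.17 and 7.57, then 10.93 and 9.86, then 8.31, 8.28 and 7.74 (adjusted p = 0.0666). Ifit1 was not separated, since wild type replicate 2, at 7.99, lay above 2 null arrays. The wild-type arrays themselves differed here, with a mean over the list of 6.46 and 7.26. The median difference was 0.46 without wild type replicate 1 and 1.46 without wild type replicate 2. Antigen presentation genes, often switched on by interferon, had 0 of 11 members separated in either direction, with H2-K1 at 10.16 and 11.40 in wild type.

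Mesenchymal glioma genes, which mark an invasive and wound-like tumour class, had 5 of 26 members above and 0 below, with a median of 0.92, made up of 1.51 in heterozygous and 0.13 in null cells. Those above were Timp1, Anxa1, Anxa2, Casp1 and Tgfbi, and 5 members passed the threshold, the first 3 of these with Lgals3 and Emp3. Cd44 and Vim, defining members, were not separated: Cd44 was at 6.21 and 3.79 in wild type, 9.88 and 10.27 in heterozygous, and 4.60, 6.45 and 3.96 in null cells. STAT3 targets and acute-phase genes had 6 of 29 above and 2 below, with Timp1, Fgl2 and Junb of smallest p. Timp1 and Fgl2 had passed the filter on dim genes on the heterozygous arrays only, so they entered by being high there. The list had a median of 0.51 (1.23 in heterozygous, 0.01 in null cells). That median was 0.23 without heterozygous replicate 2 and 0.78 without wild type replicate 1. Socs3, the feedback inhibitor that STAT3 induces, was at 9.17 and 8.72, then 10.46 and 10.80, then 9.11, 9.17 and 8.75, so the null arrays lay at the wild-type level. Stat3 RNA differed by 0.17 (adjusted p = 0.553). Of extracellular matrix genes 6 of 38 were above and 2 below, Col3a1, Col5a2 and Timp1, with its filter limit, being those of smallest p. The matrix medians were 0.45 in heterozygous and 0.08 in null cells, and 2 members were above with the filter at the 50th percentile. Hypoxia and glycolysis genes had 5 of 23 above, Pdk1, Slc2a1 (the glucose carrier GLUT1) and Bnip3 (mitophagy) among them, and 0 below. Their median was 0.40 in heterozygous and 0.22 in null cells.

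Microglia and macrophage markers moved with these groups. Of 27 measured markers 26 had a difference above 0, with a median of 0.70 (1.33 in heterozygous, 0.14 in null cells), and Cd53, Adgre1 and Irf8 were above wild type on all 5 deficient arrays. With the filter at the 50th percentile 1 marker was above. Cd53 was at 4.84 and 4.84, then 6.21 and 6.91, then 5.09, 5.09 and 5.0. The summed linear level of the 27 markers was 1850 and 1434 in wild type, 3723 and 4822 in heterozygous, and 1650, 2408 and 1690 in null cells, so wild type and null overlapped. The pan-leukocyte gene Ptprc was above the filter on the heterozygous arrays only, Itgam on none and Aif1 on 1. The part of such cells in the genes above wild type was not tested. In bulk RNA, more cells of a type and more RNA for each cell cannot be told apart.

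**Figure D3:**
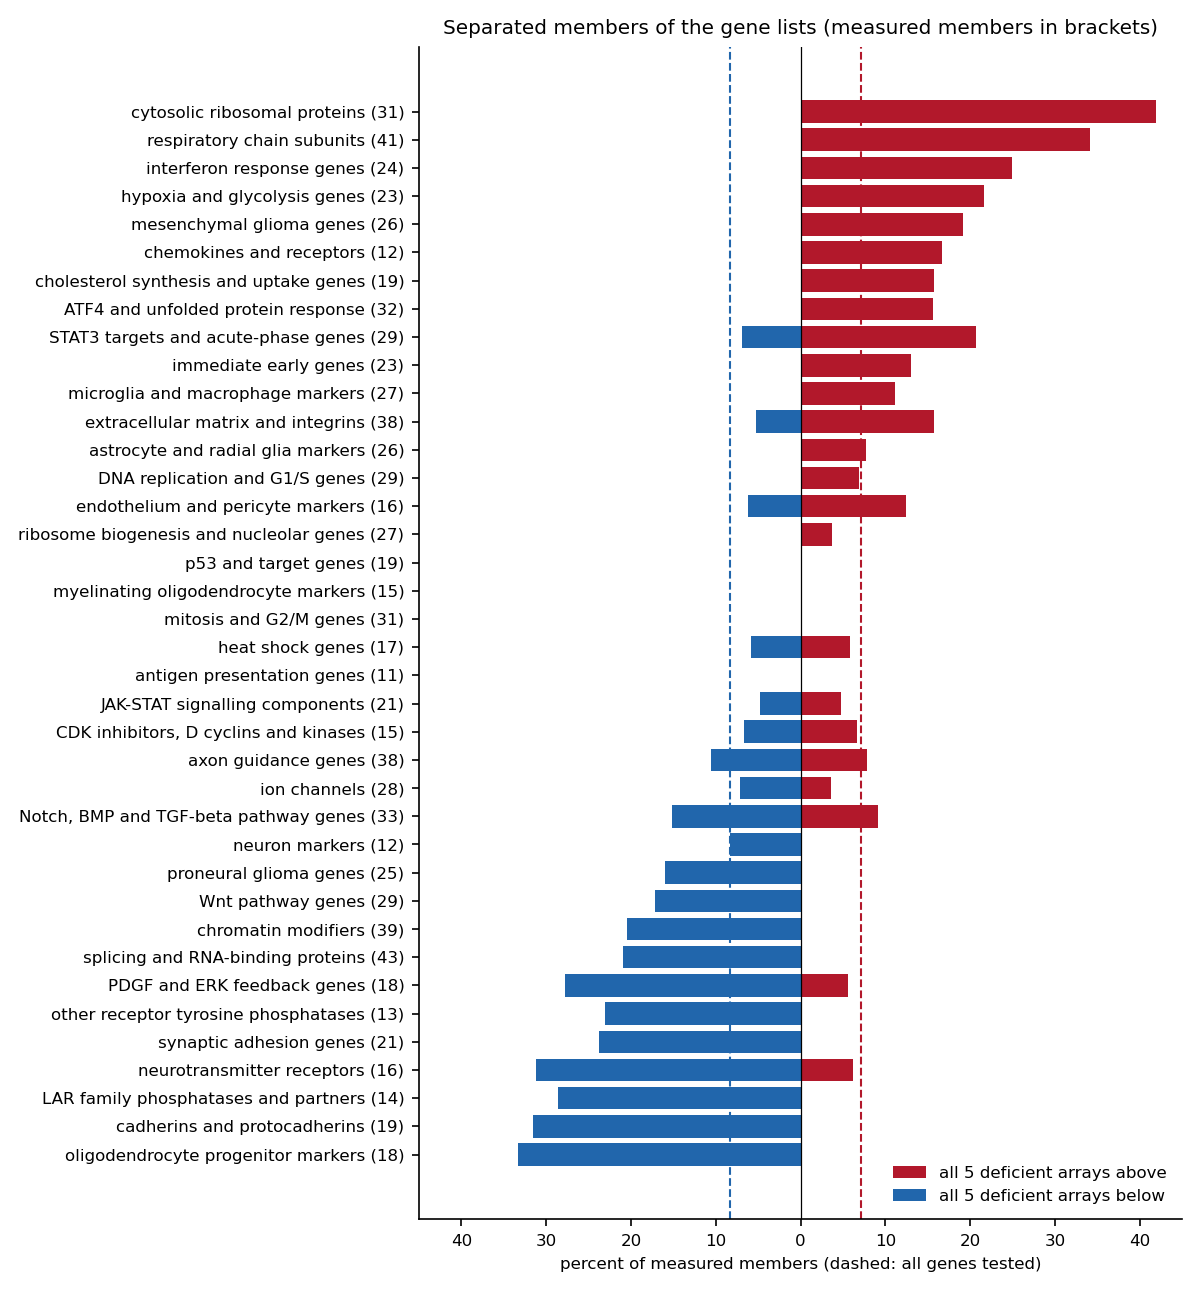
Bars show, for gene lists with at least 11 measured members (number in brackets), the percent of members for which all 5 deficient arrays were above (right, red) or below (left, blue) both wild-type arrays, with dashed lines at the shares over all genes (7.11% and 8.28%). Ribosomal proteins (41.9%) and respiratory chain subunits (34.1%) extend furthest to the right, and oligodendrocyte progenitor markers (33.3%) and cadherins (31.6%) furthest to the left.

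The lists with the largest share of members above wild type were ribosomal and mitochondrial. Among cytosolic ribosomal proteins, the protein parts of the translating ribosome, 13 of 31 measured members were above on all 5 arrays and 0 below, and all 31 differences were above 0, with a median of 0.27 (0.43 in heterozygous, 0.11 in null cells). Rps19, the member of smallest p, was at 12.04 and 11.89 in wild type, 12.83 and 12.65 in heterozygous, and 12.18, 12.25 and 12.12 in null cells, a difference of 0.50 ± 0.10 (adjusted p = 0.0827). Rps26 and Rpl35 followed with 0.45 and 0.35 (0.21 and 0.16 in null cells). None of the 31 passed the threshold, and 21 had an unadjusted limma p under 0.05. Over all 9243 genes tested 1698 had such a p, 751 of them higher. Ribosomal protein genes have many processed copies, and with the probe sets of shared probes left out 12 members remained, of which 3 were separated, against 5 of the same 12 before. Respiratory chain subunits had 14 of 41 above and 0 below, with medians of 0.09 in heterozygous and 0.12 in null cells. Cox5b, a subunit of cytochrome c oxidase, was at 12.12 and 12.10, then 12.39 and 12.68, then 12.50, 12.60 and 12.70, a difference of 0.46 ± 0.11 (adjusted p = 0.115). Uqcrq of complex III and Ndufa2 of complex I differed by 0.39 and 0.28 (0.27 and 0.14 in null cells). After arrays were centred and scaled, so that each has the same middle and width of values, 24 ribosomal and 30 respiratory members were above, with medians of 0.43 and 0.24 in place of 0.27 and 0.11. Enzymes of cholesterol synthesis had 3 of 19 above (Fdft1, Fdps and Idi1), with medians of 0.05 in heterozygous and 0.20 in null cells, and 8 above after scaling.

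Splicing and RNA-binding proteins had 9 of 43 members below and 0 above, with a median of -0.09 (-0.15 in null cells), but after scaling 0 were below and 1 above and the median was 0.05. Chromatin modifiers had 8 of 39 below and 0 above, with a median of -0.08 (-0.14 in null cells), but after scaling 3 were below and 3 above and the median was 0.01. None passed the threshold. The splicing factor gene Srsf5 was at 11.62 and 11.86 in wild type, 11.42 and 10.96 in heterozygous, and 11.54, 10.88 and 11.04 in null cells, and the RNA helicase gene Ddx17 differed by -0.37 (-0.22 in null cells). Kat6b, a histone acetyltransferase, and Smarca2, the ATPase of a chromatin remodelling complex, differed by -0.49 and -0.50 (-0.34 and -0.30 in null cells), with adjusted p of 0.0838 and 0.11. Scaling moved the median of all genes by 0.06 and turned the split of 657 above and 765 below (46.2% above) into 1173 and 284 (80.5% above). The balance between above and below therefore depended on the normalization.

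Separated genes differed in genomic span, the distance from start to end of the gene in RefSeq GRCm38.p6. The median span was 10.5 kb for genes above wild type, 52.7 kb for those below and 22.5 kb for all genes tested. With genes split by span into 4 classes of equal size, 13.3% of the shortest class were above and 2.51% below, and 3.12% and 16.8% of the longest class. The classes between gave 7.54% and 5.11%, then 4.51% and 8.71%. The median any-loss difference went from 0.07 in the shortest class to -0.12 in the longest. The null difference went from 0.07 to -0.08 and the heterozygous difference from 0.05 to -0.16. Both of these subtract the same wild-type arrays, so they are not independent of each other. After centring and scaling the share above still went from 22.3% to 5.11% and the share below from 1.08% to 6.5%. For each array, the median deviation of the shortest class minus that of the longest was -0.14 and -0.08 in wild type, 0.10 and 0.05 in heterozygous, and 0.01, -0.03 and 0.06 in null cells, without overlap of wild type and deficient arrays. The difference between 3' and 5' control probe sets for Gapdh and Actb, a measure of RNA quality, was 0.83 and 0.61, then 0.75 and 0.90, then 0.91, 0.62 and 0.81, and so overlapped between groups. With it as a covariate 3 genes were called. Its part in the span pattern was not tested, and span also goes with function, since ribosomal proteins had a median span of 3.81 kb and cadherins of 123 kb.

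**Figure D4:**
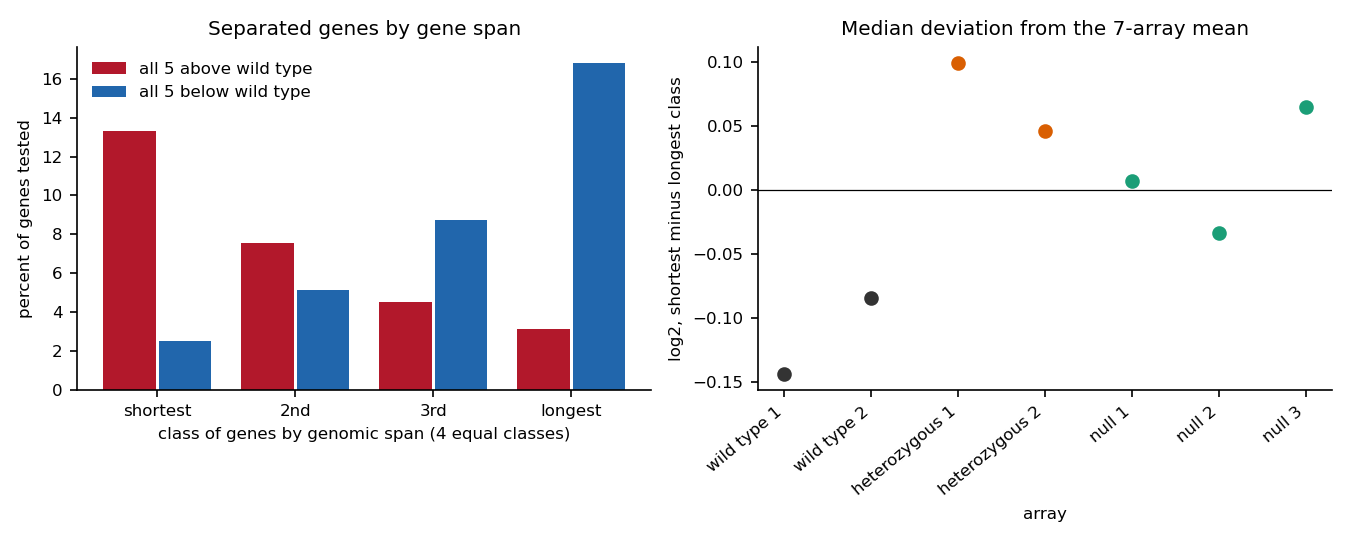
The left panel gives the percent of genes above (red) and below (blue) wild type on all 5 deficient arrays for the 4 classes of genes by genomic span, and the right panel, for each array, the log2 median deviation from the 7-array mean in the shortest class minus that in the longest. Red bars shrink from 13.3% to 3.12% and blue bars grow from 2.51% to 16.8%, and the wild-type points, at -0.14 and -0.08, are the lowest of the 7.

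All 18 measured markers of oligodendrocyte progenitors had a difference below 0, with a median of -0.40 (-0.66 in heterozygous, -0.16 in null cells), and 6 were below on all 5 arrays: Rlbp1, Tmem100, Pcdh15, Cspg4, Pdgfra and Vcan. Rlbp1 passed the threshold. Pdgfra, the receptor of the PDGF that drives these tumours, was at 13.74 and 13.72 in wild type, 12.90 and 13.27 in heterozygous, and 13.52, 13.65 and 13.57 in null cells, a difference of -0.40 (adjusted p = 0.16). Olig1 and Olig2 were not separated, the null arrays being at 13.80, 13.80 and 13.88 and at 11.50, 11.43 and 11.49, against 13.87 and 13.91 and 11.47 and 11.67 in wild type. Proneural glioma genes had 4 of 25 below (Gpm6a, Marcks, Pdgfra and Cspg4) and 0 above, with medians of -0.45 in heterozygous and -0.12 in null cells. After scaling, 2 progenitor markers and 0 proneural genes stayed below on all 5 arrays, with medians of -0.24 and -0.12. Myelinating oligodendrocyte markers had 0 of 15 separated. Astrocyte and radial glia markers had 2 of 26 above, Nes and Sox9, a share near that over all genes. Their median was 0.75 in heterozygous and 0.03 in null cells.

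Cadherins and protocadherins had 6 of 19 below and 0 above, and 3 below after scaling, with medians of -0.41 in heterozygous and -0.07 in null cells before it. Pcdhb9, a clustered protocadherin, had the largest difference of any separated gene, at 11.14 and 11.18 in wild type, 7.50 and 7.87 in heterozygous, and 10.24, 11.02 and 9.39 in null cells, or -2.21 ± 0.38 (adjusted p = 0.067). Its null arrays were far apart and its gap was 0.13. Pcdh8 was at 8.42 and 8.83, then 6.74 and 6.90, then 8.28, 7.85 and 8.30 (adjusted p = 0.058). Synaptic adhesion genes had 5 of 21 below, and 2 after scaling, led by the teneurins Tenm1 and Tenm2 and the contactin Cntn4. Their median of -0.20 became -0.10 after scaling. Before it, the medians were -0.34 in heterozygous and -0.03 in null cells. Tenm1 was at 8.0 and 8.23, then 5.26 and 6.20, then 7.61, 7.27 and 7.04, a difference of -1.60 ± 0.27 (adjusted p = 0.0666). Neurotransmitter receptors had 5 of 16 below and 1 above, with a median of -0.44 (-0.12 in null cells, and -0.25 for any loss with no filter on dim genes), and Grik1, Grik2 and Gabra2 had the smallest p. Axon guidance genes had 4 of 38 below and 3 above, so this group as a whole was near the background. Sema5a and Epha5 passed the threshold, beside 0.13% of all genes called lower. The SLIT receptor gene Robo1 was at -0.75 (-0.32 in null cells). The channel genes Scn7a and Ryr2, chosen by their gaps of 0.50 and 0.39, differed by -1.06 and -1.02 (-0.78 and -0.79 in null cells).

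Within Ptprd's own circle, 4 of 14 LAR family phosphatases and partners were below and 0 above, Ptprd itself included, and 1 was below after scaling, when Slitrk1 and Ctnnb1 overlapped wild type. Before scaling, the list median was -0.31 in heterozygous and -0.07 in null cells. Slitrk1, of the SLITRK family of ligands, was at 10.98 and 11.10 in wild type, 9.68 and 10.10 in heterozygous, and 10.95, 10.64 and 10.78 in null cells, a difference of -0.70 ± 0.14 (adjusted p = 0.0838). Beta-catenin (Ctnnb1), which LAR phosphatases can bind, differed by -0.37, and its other probe sets by -0.56 and -0.47. The nearest relatives of Ptprd were not separated. Ptprf was at 9.61 and 9.61, then 9.56 and 9.71, then 9.45, 9.71 and 9.53, and Ptprs differed by -0.16 (adjusted p = 0.61). Of 13 other receptor tyrosine phosphatases Ptpre, Ptprj and Ptpro were below and 0 above, and after scaling 0 were below. Their median before scaling was -0.50 in heterozygous and -0.13 in null cells.

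Wnt pathway genes had 5 of 29 below (Ctnnb1, Lrp6 and Tle3 with the smallest p) and 0 above, but 1 below after scaling, when these 3 overlapped wild type. Their median before scaling was -0.09 in heterozygous and -0.03 in null cells. Notch, BMP and TGF-beta genes had 5 of 33 below and 3 above (2 and 3 after scaling), among them Maml1, a Notch coactivator that was at 7.97 and 8.18, then 7.70 and 7.61, then 7.64, 7.72 and 7.65 (adjusted p = 0.109), and on the upper side the TGF-beta receptor gene Tgfbr2 and its target Tgfbi. PDGF and ERK feedback genes had 5 of 18 below and 1 above, the inhibitors Spred1 and Spred2 at -0.30 and -0.38 among those below. After scaling 1 was below and 2 above, and the median went from -0.05 to 0.01. Before scaling it was -0.25 in heterozygous and 0.02 in null cells. Spry1 and Spry2, the Sprouty feedback inhibitors, were not separated. Of ATF4 and unfolded protein response genes 5 of 32 were above, including Atf3, Chac1 and the cystine carrier gene Slc7a11, which was at 4.56 and 4.47, then 4.80 and 4.85, then 5.01, 4.87 and 5.09 (adjusted p = 0.117). The list medians were 0.29 in heterozygous and 0.14 in null cells, and 1 member was above with the filter at the 50th percentile.

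Mitosis and G2/M genes had 0 of 31 members separated in either direction, with a median difference of 1.33 in heterozygous and -0.45 in null cells. The p53 targets had 0 of 19. DNA replication and G1/S genes had 2 of 29 above, Fen1 and Ccne1, with medians of 0.78 in heterozygous and -0.12 in null cells. Cdkn2b, which encodes the CDK4 and CDK6 inhibitor p15 and lies beside the locus of p16, was above on all 5 arrays, at 9.12 and 9.18 in wild type, 9.32 and 10.12 in heterozygous, and 9.39, 10.13 and 9.58 in null cells (difference 0.56 ± 0.26, adjusted p = 0.308). Cdkn2b is the 19th tested gene on one side of Ptprd along the chromosome. Among the 20 tested genes on each side of Ptprd, 2 of 40 were above (5%) and 4 below (10%), and 0 were called, near the shares over all genes.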

How the data were processed

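RNA of sorted tumour cells from 7 samples (2 wild-type, 2 heterozygous, 3 null) was measured on Affymetrix arrays from 75 ng of total RNA, labelled from the 3' end per the labels' protocols. The authors deposited log2 values, and RMA and Partek 6.6 are the tools listed in the submitters' processing notes, without settings. RMA gives all arrays a common distribution, so a shift of all genes one way would be hidden. The number of arrays limits the precision.

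Of 22626 probe sets other than controls, 20380 named 1 gene in the platform annotation. Each of 12393 genes was represented by its brightest probe set and tested where 2 or more arrays had it over their 30th percentile, leaving 9243 genes. limma 3.58.1 in R 4.3.3 fitted 3 genotype means to the 7 arrays, with moderated two-sided tests and Benjamini-Hochberg adjustment over the 9243 genes. The fit was tested on simulated data. A gene was called separated where all 5 deficient arrays lay on one side of both wild-type arrays, and its gap is the distance between the nearest arrays of both sides. Gene lists were described by counts and medians, without a set test. Promoter windows (250 bases before the start) were searched for motifs in RefSeq sequence.

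The genes named are Ptprd, the separated genes with the largest gaps, those with the largest difference in both genotypes, up to 6 in each direction past the threshold, up to 3 separated and 2 defining members of each list, the genes nearest the edge of separation, and genes ordered by genotype. The others of the 30 genes past the threshold, Vcan, Sox10, Ptprz1 and further list members were named outside that rule, after their values were seen. The members and lists were chosen with earlier results of these data known. Alternatives covered the filter, the choice of probe set, moderation, weights, scaling, a replicate block, covariates and leaving out arrays. The covariate of 3' minus 5' control difference was chosen after seeing the data. Same-numbered samples did not deviate together (correlations of -0.41 to 0.11), so replicate numbers were not taken as pairs.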

Additional observations from a re-analysis of the deposited data

Results flagged for a closer look

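The effect of heterozygous loss and that of null loss, each against wild type, differed by the limma test of null against heterozygous in 21 of the 23 separated genes past the threshold, with adjusted p-values of 0.000739 to 0.0327. Null cells were lower than heterozygous cells on the log2 scale for Timp1 (-3.69), Anxa2 (-2.15), Srgn (-1.62), Fgl2 (-1.39), Hspb8 (-1.33), Crip1 (-1.29), Mt1 (-1.28), Ctsh (-1.22), Anxa1 (-1.18), Oaf (-1.15) and Ifitm2 (-1.08). They were higher for Nrg3 (1.36), Epha5 (1.34), Svil (1.16), Sez6l (1.15), Lifr (1.13), Rlbp1 (0.90), Chst15 (0.86), Grik1 (0.85), Tob2 (0.78) and Sema5a (0.69). In each of these genes the null arrays were the nearer to wild type. Over all genes tested, 828 (8.96%) were called between null and heterozygous. The 23 genes were chosen by a difference in which the heterozygous arrays weigh 1 in 2. Those arrays enter this test again, so a difference was partly built in and the count of 21 is a description.

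Among the 5 deficient arrays, heterozygous replicate 1 stood apart from the other 4 for Nes (7.43), Ptprj (6.84) and Adam10 (10.52), and heterozygous replicate 2 for Ccl4 (6.94). The distance to the nearest array was 0.62, 0.54, 0.17 and 0.73. These are 4 of 130 named genes examined, and the limit used passes about 1 in 20 groups by chance, or 6.5 of 130.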

How the results depend on the processing

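With 30 calls for any loss (18 higher, 12 lower), other fits gave 47 with every probe set by itself (21 lower), 55 with trend and robust moderation (31 and 24), 76 with the Xist level as a covariate (47 and 29), 236 with array weights (117 and 119), and 10 without moderation (3 and 7). Adding the control probe difference as a covariate, a choice made after seeing the data, left 3 calls (3 and 0). After arrays were centred and scaled 6 were lower. There were 0 calls, 0 in each direction, with 5 deficient arrays weighted equally in a model of 2 groups (567 genes at an unadjusted limma p under 0.05), with the replicate block (1414) and without heterozygous replicate 1 and null replicate 1 together (1316). Leaving out 1 array gave 0 to 22 calls, 0 to 15 higher and 0 to 7 lower, with 826 to 1887 genes at an unadjusted p under 0.05. Where 1 wild-type or heterozygous array remained, it was assumed to vary like the other groups. The cause was not tested.

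Separated genes above numbered 1001 without a filter, 1173 after scaling and 1089 without the 2 arrays named, and 688 to 1412 with 1 array left out. Those below numbered 1368 over probe sets, 284 after scaling, and 820 to 1648 with 1 array left out. The median span stayed between 9.02 and 14.3 kb above and between 36.4 and 57.2 kb below over the settings that changed the genes, values or arrays.

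Ptprd kept its direction in all settings run. It passed the threshold with array weights (-1.37, adjusted p = 0.0352) and with the Xist covariate (-1.50, adjusted p = 0.0384), and ranged from -1.48 to -1.24 with 1 array left out. With the replicate number as a block the difference was -1.48 (adjusted p = 0.12). Replicate numbers were not shown to pair samples. Signs changed for some genes that passed no threshold. After scaling the difference was 0.0524 for Hnrnpdl, 0.0857 for Ptprf and 0.169 for Fos. Ptprf was at 0.054 without heterozygous replicate 1 and null replicate 1 together, 0.0159 with the Xist covariate and 0.0164 with the control probe covariate, Fos at 0.038 with the replicate block, and Spry2 at -0.297 for the mean of its probe sets. With 1 array left out Ptprf ranged from -0.0493 to 0.0258, Fos from -0.0801 to 0.0774, Spry2 from -0.0019 to 0.121 and Ttr from -0.332 to 0.854. The chemokine median was -0.11 with a filter at the 50th percentile.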

Other observations

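Immediate early genes, which growth factors and handling switch on within minutes, had 3 of 23 members above wild type on all 5 deficient arrays (Atf3, Junb and Zfp36) and 0 below, with a median of 0.03 (-0.05 without wild type replicate 1). Zfp36, which destabilises cytokine RNAs, was at 5.86 and 5.50 in wild type, 6.90 and 7.15 in heterozygous, and 6.0, 6.04 and 5.97 in null cells (difference 0.84 ± 0.13, adjusted p = 0.0591). Fos, the best known of the group, was not separated, at 12.27 and 12.42, then 12.31 and 12.42, then 12.51, 12.29 and 12.16. Of chemokines and receptors 2 of 12 were above, Ccl12 and Ccl4. Ccl12, a monocyte attractant, was at 3.39 and 3.25, then 5.40 and 5.73, then 3.50, 4.36 and 3.49 (difference 1.36 ± 0.25, adjusted p = 0.0784), and was above the filter on the heterozygous arrays only.

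Markers of ependymal and choroid plexus cells had 2 of 8 measured members above (Foxj1, the regulator of motile cilia, and Dnah11) and a median of 0.64, with 0.58 in heterozygous and 0.59 in null cells. The median was 0.41 without null replicate 1 and 1.03 without wild type replicate 2, and the list as a whole overlapped between groups. With the filter at the 50th percentile 0 members were above. Foxj1 was at 4.52 and 4.94, then 6.69 and 6.18, then 6.07, 5.10 and 5.42 (difference 1.25 ± 0.28, adjusted p = 0.0986). Ttr, the defining transcript of choroid plexus, was high on every array and not separated, at 12.50 and 13.69 in wild type, 12.66 and 13.58 in heterozygous, and 14.32, 13.27 and 13.19 in null cells. Neuron markers had 1 of 12 below (Reln) and 0 above, and T, B and NK cell markers 1 of 5 above and 1 below.

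By chromosome, the share of genes below wild type ranged from 4.82% on chromosome 17 to 16.3% on chromosome 18, with 12.9% on chromosome 14 and 12.6% on the X, against 8.28% overall. The share above ranged from 4.42% on chromosome 14 to 8.88% on chromosome 1. Chromosomes were not compared by a test.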
